A study of Mus musculus with 6 samples.

Results

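The 38 genes described here encode the cholesterol machinery of a macrophage: 18 enzymes of mevalonate and sterol synthesis, 5 regulators of the sterol-sensing SREBP pathway and of endosomal cholesterol transport, and 15 genes of the LXR branch with its efflux and lipogenic targets. They were chosen by symbol, as the rows of the deposited count table that carry a listed gene symbol; each symbol matched 1 row, giving 38 of 55335 rows, and all 38 passed the filter on low counts and were tested among 13901 genes. The libraries came from bone marrow-derived macrophages of mouse, primary cells grown from marrow with 20 ng/mL of the growth factor M-CSF. The labels also give 10% serum and 1% antibiotic for the culture of every library. From day 5 the cells of both groups received medium conditioned by injured acinar cells of the pancreas (PAC-CM). In 3 libraries (the PAC-CM group) nothing else was given, and in 3 libraries (the kinsenoside group) 400 µM kinsenoside, a plant glycoside, was added. The labels give no genotype, strain, age or duration of exposure for the mice and cultures. No macrophages without PAC-CM are among the samples, so each value below compares kinsenoside with its absence on that background.

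Macrophages take up cholesterol from lipoproteins and dead cells, and both make and export it. When sterol in the endoplasmic reticulum is low, Scap escorts the transcription factor encoded by Srebf2 to the Golgi, where it is cut and freed to switch on the synthesis enzymes; when sterol is high, the Insig proteins hold Scap back. In the opposite direction, oxysterols and a late sterol precursor activate the nuclear receptors LXR alpha (Nr1h3) and LXR beta (Nr1h2), whose targets move cholesterol out of the cell, limit its uptake and drive fatty acid synthesis.

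None of the 38 cholesterol genes passed the test across all genes (edgeR's quasi-likelihood test, Benjamini-Hochberg adjusted p under 0.05), in a comparison that called 0.511% of all tested genes. The 4 members with the smallest p-values, Mylip, Abcg1, Soat1 and Nr1h3, were in the LXR branch. Mylip, an E3 ubiquitin ligase that sends lipoprotein receptors for breakdown, had 1.15 to 1.48 times its PAC-CM level (95% interval), and Abcg1, a transporter that exports cholesterol to high-density lipoprotein, 1.11 to 1.40 times. Soat1, which esterifies cholesterol for storage, had 1.05 to 1.27 times. Nr1h3 itself had 0.78 to 0.95 times its PAC-CM level. All 3 kinsenoside libraries lay on one side of all 3 PAC-CM libraries for each of these 4 genes, but their adjusted p-values from edgeR were 0.0879, 0.11, 0.178 and 0.182. DESeq2, run as an alternative, called Mylip and Abcg1 and no other member. Among all genes to which it gave an adjusted p, it called 4.11%.

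Without adjustment, 9 members had an edgeR p under 0.05. Of all tested genes, 14.9% had one. By direction, 5 of the 38 members had such a p and a higher estimate (Mylip, Abcg1, Soat1, Srebf2 and Apoc2), against 6.74% of all tested genes. The other 4 had a lower estimate (Nr1h3, Acat2, Scap and Dhcr7), against 8.19% of all tested genes. Groups did not overlap for 5 members that were higher with kinsenoside (Mylip, Abcg1, Soat1, Ebp and Lpcat3), against 10.4% of all tested genes, and for 4 that were lower (Nr1h3, Acat2, Scap and Mvk), against 11.4%. Scaled by library totals alone, the members gave 4 and 4, and all tested genes 953 higher and 2177 lower in place of 1444 and 1587. Estimates were above 0 for 24 members and below 0 for 14. Their median log2 fold change was 0.05, beside -0.01 over all tested genes, and the median size of the log2 fold change was 0.12, beside 0.14.

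Each 95% interval gives the range of fold changes compatible with the spread between these libraries, which may be technical. For 32 of the 38 members (84.2%) the whole 95% interval of the fold change lay within 1.5-fold in either direction, and for 36 (94.7%) within 2-fold, beside 61.1% and 79.7% of all tested genes. Scd1 and Scd2 were the 2 members with wider intervals. Replicate spread was a median coefficient of variation of 9.14% for the members and 10.9% for all tested genes. These intervals are not adjusted for the number of genes, and the members were not matched to the other genes by level.

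**Figure D1:**
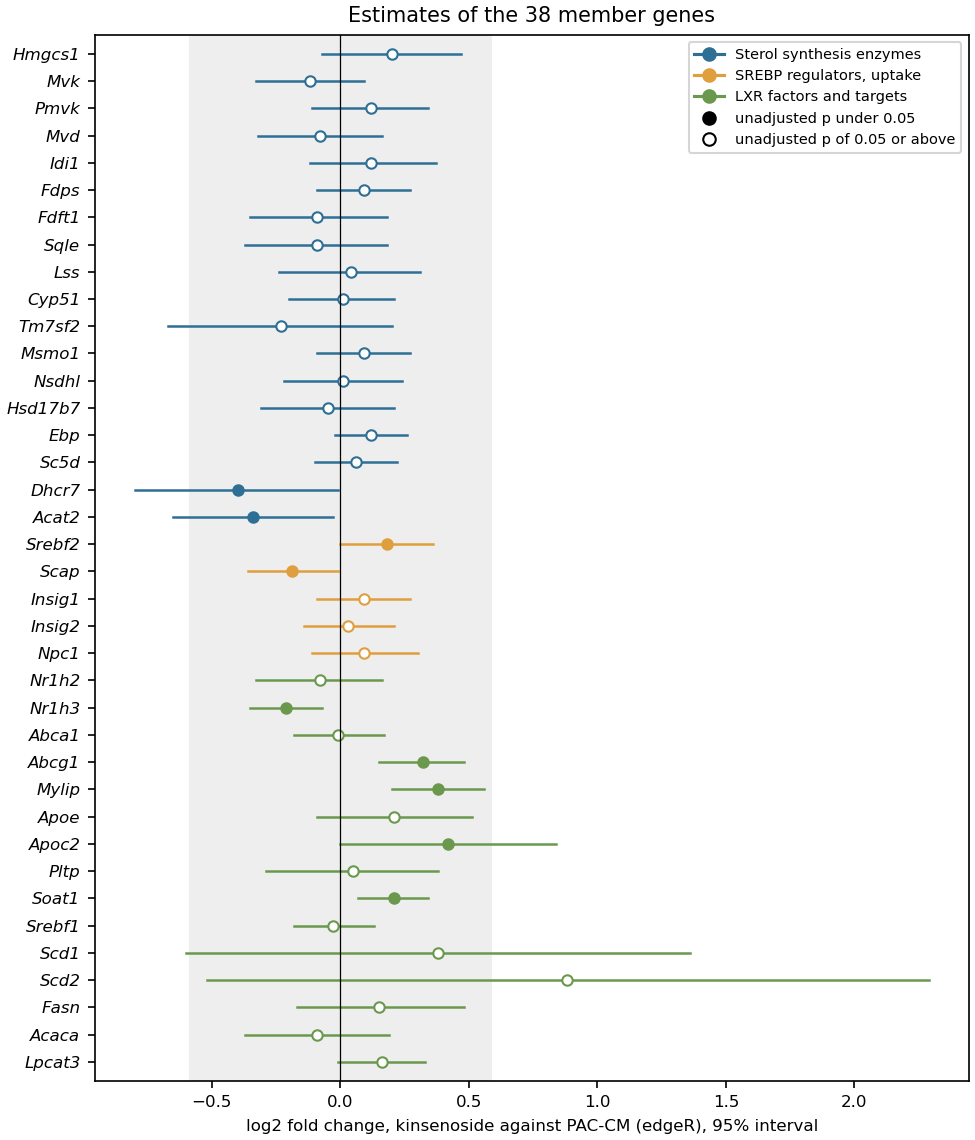
Estimated log2 fold change (x axis) of each of the 38 genes (y axis), kinsenoside against PAC-CM, from edgeR, with its 95% interval as a line; the grey band marks a 1.5-fold difference in either direction, colours mark the 3 subgroups and filled points an unadjusted p under 0.05. The intervals of 32 genes lie inside the band, and the widest belongs to Scd2, from -0.52 to 2.29.

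Totals were 41125059 to 47461702 counts per library, so that 3 counts, the limit taken for a gene at 0, correspond to 0.0632 to 0.0729 CPM (counts-per-million). The first principal component (28.8% of the variance) placed the PAC-CM libraries at -25.7 to -11.9 and the kinsenoside libraries at 4.29 to 30.7. The second (23.6%) set kinsenoside replicate 1 apart, at -39.3 against -6.13 to 19.7 for the other 5 libraries. Over all tested genes, edgeR called 29 higher and 42 lower. Macrophage markers summed to 21000 to 23200 normalised CPM in PAC-CM and 24000 to 26900 in kinsenoside libraries, and none of their 13 rows was called, though 4 had an unadjusted p under 0.05; the part of this shift in the values below was not tested. Acinar markers summed to 7.79 to 8.84 and 6.68 to 9.23, with Ptf1a and Bhlha15 at 0 in every library, and markers of neutrophils (30.7 to 39.6 and 33.9 to 43.6, with Elane and Retnlg at 0) overlapped between the groups as well. Markers of T, NK, B and dendritic cells, of stroma and of adipocytes and hepatocytes summed to at most 8.82 per list in any library, and no marker of any list was called. In bulk RNA, fewer cells of a type and less RNA per cell cannot be told apart. The labels do not say whether libraries of a group came from separate animals or cultures, so the tests weigh differences against a library spread that may be technical.

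Levels between genes were compared as TPM (transcripts-per-million), which divide by transcript length, as mean ± SD over 3 libraries. Apoe, the secreted apolipoprotein that accepts cholesterol from macrophages, was the most abundant member, at 3200 ± 372 TPM in PAC-CM and 3500 ± 546 with kinsenoside. Pltp, which transfers phospholipid between lipoproteins, followed at 384 ± 46.9 and 375 ± 69.7 TPM. Soat1, the enzyme that esterifies cholesterol for storage, stood at 118 ± 2.46 TPM in PAC-CM, next to Nr1h3 at 114 ± 3.01 and the exporter Abca1 at 101 ± 5.55. Soat1 and Nr1h3 differed by less than the sum of their SDs, and with the longest transcript as the length Npc1 moved from place 6 to place 3.

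The synthesis enzymes spanned a wide range of levels per length. In PAC-CM Msmo1, a sterol demethylase, had 57.3 ± 5.31 TPM, Cyp51 (lanosterol demethylase) 54.5 ± 4.31 and Mvd (mevalonate diphosphate decarboxylase) 53.2 ± 7.04, and these 3 differed by less than their spread. Their order rests on the length used: with the longest transcript Msmo1 had 96.9 TPM, above Cyp51 and Mvd (44.1 TPM for Mvd). At the lower end by this length were Dhcr7, which makes cholesterol from its immediate precursor in one branch of the pathway, at 7.78 ± 0.92, Lss, which closes the sterol rings, at 6.81 ± 0.398, and the sterol reductase Tm7sf2 at 3.14 ± 0.329 TPM. With the longest transcript Dhcr7 had 13.1 TPM, above Hsd17b7 (12.7) and Mvk (9.71). The lipogenic enzymes Fasn, Acaca and Scd1 were low as well, at 4.13 ± 0.728, 3.12 ± 0.0117 and 2.14 ± 0.739 TPM, while the desaturase Scd2 had 32.1 ± 20.4. The receptor Nr1h3 stood above Nr1h2, which had 42.2 ± 4.57 TPM, and Srebf2 (42.2 ± 2.2) above Srebf1 (19.3 ± 0.925).

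**Figure D2:**
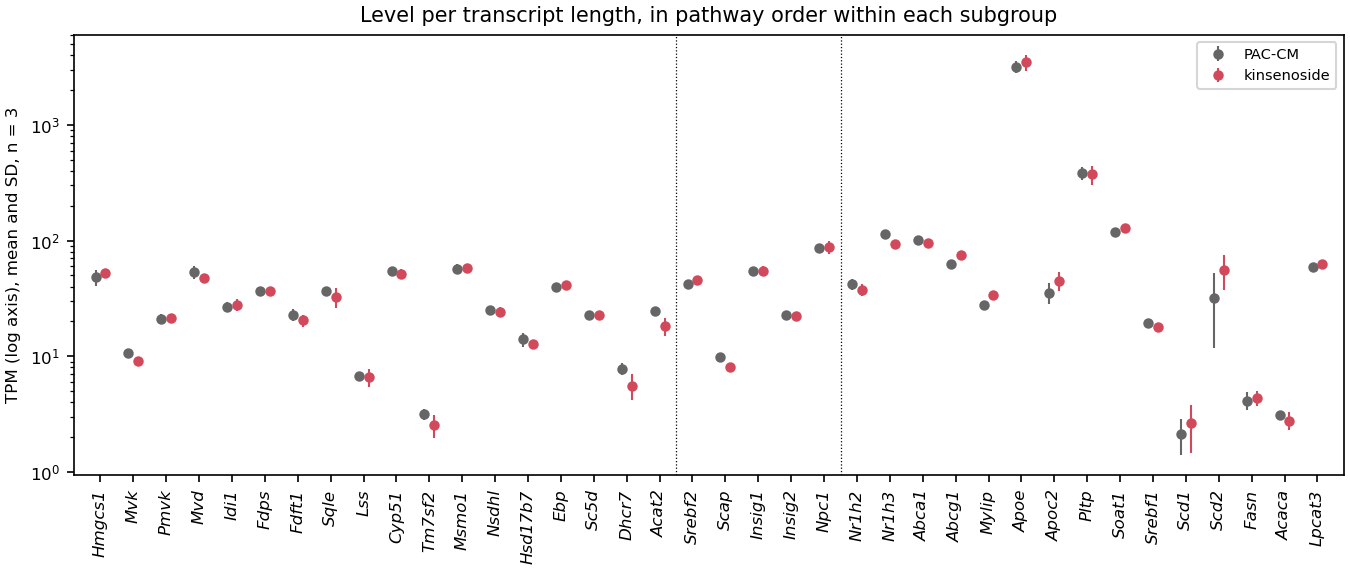
Level of each of the 38 genes in TPM (y axis, log scale) in PAC-CM (grey) and kinsenoside libraries (red), as mean and SD over 3 libraries, in pathway order and with dotted lines between the enzymes, the SREBP regulators and the LXR branch. Apoe lies highest, at 3200 TPM in PAC-CM, and Scd1 lowest, at 2.14.

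Among the 18 synthesis enzymes, 10 estimates lay above 0 and 8 below, with a median log2 fold change of 0.01 and a range from -0.40 to 0.20. None passed the test; 2 had an unadjusted edgeR p under 0.05, both lower, as 8.19% of all tested genes had. The whole interval stayed within 1.25-fold for 9 enzymes and within 1.5-fold for 15. Summed over the 18 enzymes, the libraries held 742, 700 and 738 normalised CPM (CPM of the TMM-scaled library total) in PAC-CM and 700, 784 and 738 with kinsenoside. The 2 groups of sums overlap.

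The enzymes from acetyl-CoA units to squalene opened with Acat2, which condenses acetyl-CoA at the head of the pathway. Its values were 23.6, 20.5 and 21.6 normalised CPM in PAC-CM and 13.9, 17.9 and 20.2 with kinsenoside. All kinsenoside values were below all PAC-CM values, by a narrow margin between 20.2 and 20.5, and replicate 1 was the lowest. The log2 fold change was -0.34 ± 0.135 (SE; adjusted p 0.302, edgeR) and -0.20 without kinsenoside replicate 1. Acat2 shares 45.9% of the 50-base stretches of its longest transcript with its neighbour Acat3, so reads of the pair can be divided between them. Acat3, which is not among the 38, had 683, 662 and 592 counts in PAC-CM and 443, 478 and 415 with kinsenoside, a log2 fold change of -0.41 with an adjusted p of 0.129 (edgeR).

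Hmgcs1, which makes HMG-CoA, had 68.9, 72.6 and 91.5 normalised CPM in PAC-CM and 80.0, 93.3 and 94.7 with kinsenoside. It had the highest estimate of the enzymes, 0.20 with an interval from -0.07 to 0.47, and its groups overlapped because PAC-CM replicate 3 was high. Mvk, the mevalonate kinase, had 9.71, 9.88 and 10.3 normalised CPM in PAC-CM and 8.88, 9.12 and 9.42 with kinsenoside. The Mvk groups did not overlap, but the difference was small, at -0.12 with an interval from -0.33 to 0.09 on the log2 scale. Between mevalonate and squalene, the estimates of Pmvk (0.12), Mvd (-0.08), Idi1 (0.12), Fdps (0.09), which makes farnesyl diphosphate, and Fdft1 (-0.09), the squalene synthase, were all of overlapping groups. Without kinsenoside replicate 1, Idi1 was at 0.22 and Fdft1 at -0.01. Fdft1 shares 18.3% of its exon bases with Ctsb on the opposite strand, a gene with 588 times its counts, and whether the counting used strand is not stated, so the Fdft1 values are uncertain.

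The enzymes from squalene onward varied with single libraries. Sqle, the squalene epoxidase that controls entry into the sterol branch, had 72.7, 70.0 and 70.8 normalised CPM in PAC-CM and 58.9, 81.1 and 60.2 with kinsenoside. Its PAC-CM libraries lay close together and inside the range of the kinsenoside libraries, of which replicate 2 was high. Its log2 fold change was -0.09 with an interval from -0.37 to 0.18. It was -0.26 without kinsenoside replicate 2, -0.01 without replicate 1 and -0.02 without replicate 3. Cyp51 had 85.7, 77.5 and 90.7 in PAC-CM and 77.6, 93.0 and 84.7 with kinsenoside, a log2 fold change of 0.01 with an interval from -0.20 to 0.21. Msmo1 had 136, 114 and 122 in PAC-CM and 138, 131 and 126 with kinsenoside, an estimate of 0.09 with an interval from -0.09 to 0.27. For both demethylases the groups overlapped and the whole interval stayed within 1.25-fold.

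Dhcr7 had the lowest estimate of the enzymes. It had 17.3, 16.7 and 13.8 normalised CPM in PAC-CM and 10.4, 15.4 and 10.4 with kinsenoside. Replicates 1 and 3 with kinsenoside lay below every PAC-CM library, and replicate 2 lay above PAC-CM replicate 3. The log2 fold change was -0.40 ± 0.172 (SE; adjusted p 0.327, edgeR), with a range from -0.62 without kinsenoside replicate 2 to -0.30 without kinsenoside replicate 1. Tm7sf2 had 5.38, 4.41 and 4.78 in PAC-CM and 3.06, 4.45 and 4.89 with kinsenoside, and its estimate of -0.23 became -0.06 without kinsenoside replicate 1 and -0.37 without replicate 3. Tm7sf2 shares 12.1% of its exon bases with Vps51 on the same strand, a gene with 6.93 times its counts, so its values are uncertain. Ebp, the sterol isomerase, had 32.5, 32.1 and 32.8 in PAC-CM and 36.1, 35.1 and 34.5 with kinsenoside. Ebp was the single enzyme whose kinsenoside libraries all lay above its PAC-CM libraries, with an estimate of 0.12 and an adjusted p of 0.42 (edgeR). Lss (0.04), Nsdhl (0.01), Hsd17b7 (-0.05) and Sc5d (0.06) were all of overlapping groups with estimates near 0.

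The kinsenoside libraries differed among themselves across the enzymes. Kinsenoside replicate 1 had the lowest value of its own group for 13 of the 18 enzymes, and replicate 2 had the lowest for 0 and the highest for 8. Of 25 further SREBP pathway genes, replicate 1 was the lowest for 16 and replicate 2 for 2. Of 23 further genes that handle cholesterol, replicates 1 and 2 were each the lowest for 6. These counts were not made over all tested genes, so the pattern cannot be called particular to the enzymes. The median deviation of the enzymes from each gene's mean over the 6 libraries was 0.04, 0.03 and 0.03 on the log2 scale in PAC-CM and -0.10, 0.07 and 0.02 with kinsenoside. The PAC-CM medians thus lie inside the range of the kinsenoside medians. Without kinsenoside replicate 1 the enzymes' median log2 fold change was 0.06, and without replicate 2 it was -0.06.

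**Figure D3:**
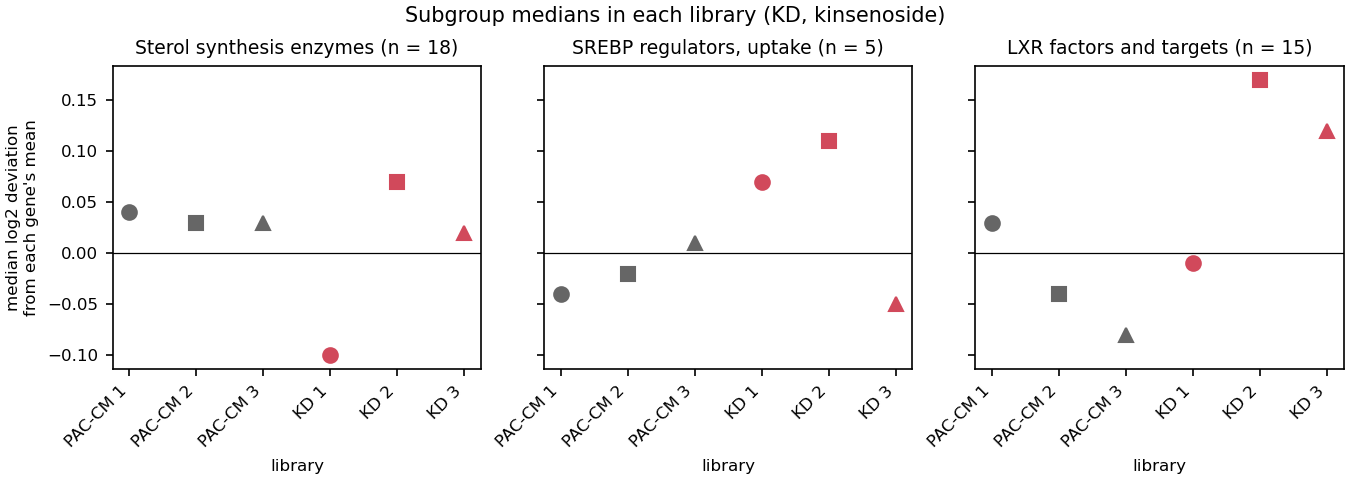
Median log2 deviation from each gene's mean over the 6 libraries (y axis), for the genes of each subgroup in each library (x axis; KD, kinsenoside). For the enzymes kinsenoside replicate 1 is lowest at -0.10 and replicate 2 highest at 0.07, and for the LXR branch kinsenoside replicates 2 and 3 are highest at 0.17 and 0.12.

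What the enzymes share in sequence was read from RefSeq promoter windows (GRCm38.p6), limited to the 250 bases before each start, which 31 of the 38 members have. The motif CCAAT, bound by the factor NF-Y and searched on both strands (ATTGG is its complement), was in the windows of 14 of 15 enzymes (93.3%), 3 of 4 SREBP regulators (75.0%) and 6 of 12 genes of the LXR branch. It was in 40.4% of the 9689 tested genes with a window and 37.5% of the 27025 genes in the table of windows. Acat2 was the enzyme without it. The letters TCACCCCA, a core of the sterol regulatory element to which SREBPs bind, were in the windows of Hmgcs1, Srebf2 and Apoe, 3 of 31 members (9.68%), against 1.57% of tested genes. The longer form TCACNCCAC, which overlaps the shorter one, was in that of Hmgcs1 alone, 3.23% of members against 1.22%. The motifs were picked from general knowledge and a match is a description, not a binding site. The 68 bases around the TCACCCCA letters of Hmgcs1 (chr13:119690184-119690251, plus strand) and Srebf2 (chr15:82147077-82147144, plus strand), chosen after the windows had been searched, are printed 5′ to 3′ with the sterol element and CCAAT letters in capitals, because an SREBP target enzyme and the SREBP gene itself carry the same letters:
Hmgcs1: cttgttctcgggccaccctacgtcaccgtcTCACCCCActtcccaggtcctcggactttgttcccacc
Srebf2: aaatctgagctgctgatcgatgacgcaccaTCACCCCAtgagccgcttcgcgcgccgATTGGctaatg
The log2 fold changes were 0.20 for Hmgcs1 (interval -0.07 to 0.47), 0.18 for Srebf2 (0.00 to 0.36) and 0.21 for Apoe (-0.09 to 0.51). None passed the test, and any relation of the letters to the estimates was not tested.
The 250 bases before the start of Acat2 (chr17:12960726-12960975, minus strand), the enzyme with the smallest p, hold none of the letters searched:
Acat2: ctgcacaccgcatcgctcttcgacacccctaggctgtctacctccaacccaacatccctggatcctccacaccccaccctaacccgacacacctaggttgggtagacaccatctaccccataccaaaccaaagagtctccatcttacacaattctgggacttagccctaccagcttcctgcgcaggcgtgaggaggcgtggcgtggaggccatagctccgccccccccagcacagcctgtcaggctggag

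Of the 5 genes that sense sterol or release cholesterol from endosomes, 4 estimates lay above 0 and 1 below, with a median log2 fold change of 0.09, and every interval stayed within 1.5-fold. Srebf2 had 100, 112 and 108 normalised CPM in PAC-CM and 130, 123 and 111 with kinsenoside. Replicates 1 and 2 with kinsenoside lay above every PAC-CM library and replicate 3 did not. Its log2 fold change was 0.18 with an interval from 0.00 to 0.36 and an adjusted p of 0.331 (edgeR). Scap, the escort of the SREBPs, had 26.1, 24.5 and 26.1 in PAC-CM and 23.8, 22.4 and 21.4 with kinsenoside, so the groups did not overlap. Its log2 fold change was -0.19 with an interval from -0.36 to -0.01 and an adjusted p of 0.313 (edgeR). The factor and its escort thus had estimates of opposite sign, both under a 1.5-fold difference.

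Insig1, itself an SREBP target, had 57.8, 58.1 and 61.1 normalised CPM in PAC-CM and 60.2, 69.2 and 58.9 with kinsenoside, and Insig2 had 27.3, 26.5 and 29.7 and then 29.5, 28.9 and 27.1. Their estimates were 0.09 and 0.03, and in both the groups overlapped. Npc1, the endosomal membrane protein that releases lipoprotein cholesterol, had 361, 349 and 324 in PAC-CM and 386, 396 and 320 with kinsenoside, an estimate of 0.09 with an interval from -0.11 to 0.30. Kinsenoside replicate 3 was the lowest of its group for all 5 of these genes.

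In the LXR branch, 10 of 15 estimates lay above 0 and 5 below, with a median log2 fold change of 0.16 and a range from -0.21 to 0.88. None passed the edgeR test; 4 had an unadjusted p under 0.05 with a higher estimate (6.74% of all tested genes had one) and 1 with a lower one (8.19%). The groups did not overlap for 4 higher genes (10.4% of all tested genes) and 1 lower one (11.4%), or 3 and 1 when scaled by library totals, where Lpcat3 overlapped. Kinsenoside replicate 1 had the lowest value of its own group for 10 of the 15 genes, and without it the median log2 fold change of the branch was 0.21. That median was 0.12 without kinsenoside replicate 2 and 0.13 without kinsenoside replicate 3. Without PAC-CM replicates 1, 2 and 3 in turn it was 0.21, 0.13 and 0.19.

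The receptor Nr1h3 (chr2:91184061-91202834) had 99.8, 98.5 and 104 normalised CPM in PAC-CM and 83.0, 88.7 and 89.5 with kinsenoside. All kinsenoside libraries lay below all PAC-CM libraries. The log2 fold change was -0.21 ± 0.0626 (SE; interval -0.35 to -0.07), with an adjusted p of 0.182 by edgeR and 0.141 by DESeq2. Nr1h2 had 55.7, 47.6 and 46.1 in PAC-CM and 40.7, 50.3 and 50.2 with kinsenoside, an estimate of -0.08 with overlapping groups, of which replicate 1 was the highest of its group in PAC-CM and the lowest with kinsenoside. The log2 ratio of the counts of the 2 receptors, Nr1h3 over Nr1h2, was 0.84, 1.05 and 1.17 in PAC-CM and 1.03, 0.82 and 0.83 with kinsenoside. That ratio overlapped between the groups (two-sided exact permutation p 0.2, adjusted over 5 ratios 0.33).

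The 2 main sterol exporters of macrophages had unlike estimates. Abcg1 (chr17:31057675-31117988) had 160, 156 and 171 normalised CPM in PAC-CM and 186, 208 and 213 with kinsenoside, a mean of 162 ± 7.62 against 202 ± 14.3 (SD, n = 3). Every kinsenoside library was above every PAC-CM library. Its log2 fold change was 0.32 ± 0.073 (SE; interval 0.15 to 0.48), with an adjusted p of 0.11 by edgeR, 0.113 by limma-voom and 0.0163 by DESeq2. DESeq2 called 4.11% of the genes to which it gave an adjusted p and limma-voom 0.468% of those tested. Abca1, which loads cholesterol onto apolipoprotein A-I, had 343, 384 and 374 in PAC-CM and 347, 353 and 397 with kinsenoside. The Abca1 groups overlapped throughout, with a log2 fold change of -0.01 and an interval from -0.18 to 0.17.

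Taken within each library, where scaling cancels, the log2 ratio of Abcg1 over Abca1 counts was -1.10, -1.30 and -1.13 in PAC-CM and -0.90, -0.76 and -0.90 with kinsenoside. The ratio was higher in all 3 kinsenoside libraries than in any PAC-CM library, by 0.32 on average, and the exact two-sided permutation p was 0.1, the smallest that 3 against 3 libraries allow. Adjusted over the 5 ratios computed it was 0.25. Of the other ratios, Srebf1 over Srebf2 was lower in all kinsenoside libraries (-1.76, -1.69 and -1.62) than in PAC-CM (-1.37, -1.49 and -1.58), with the same exact p of 0.1 (adjusted 0.25). Insig1 over Insig2 overlapped between the groups, as did Scd1 over Scd2 (exact permutation p 0.7 and 0.4).

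Mylip (chr13:45389742-45412022), an LXR target that lowers lipoprotein uptake, had the smallest p of the 38 genes. It had 29.1, 31.2 and 33.8 normalised CPM in PAC-CM and 39.0, 40.5 and 43.2 with kinsenoside, a mean of 31.4 ± 2.35 against 40.9 ± 2.12 (SD, n = 3). The groups stood clear of each other, with a gap larger than either SD. The log2 fold change was 0.38 ± 0.0792 (SE; interval 0.20 to 0.56), with an adjusted p of 0.0879 by edgeR, 0.0919 by limma-voom and 0.00783 by DESeq2. Over 15 alternative settings its adjusted p ranged from 0.00783 to 0.279, and that of Abcg1 from 0.0163 to 0.329. Of these settings DESeq2 alone called them. The 250 bases before the start of Mylip (chr13:45389492-45389741, plus strand; RefSeq, GRCm38.p6) are shown as those of the LXR-branch gene with the smallest p, and hold 3 CCAAT letters, each as its complement ATTGG, in capitals:
Mylip: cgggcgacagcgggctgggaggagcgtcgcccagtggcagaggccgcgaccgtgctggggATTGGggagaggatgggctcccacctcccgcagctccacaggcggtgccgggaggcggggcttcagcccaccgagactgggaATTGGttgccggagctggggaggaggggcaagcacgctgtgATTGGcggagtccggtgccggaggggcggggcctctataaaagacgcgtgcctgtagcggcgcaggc

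Soat1 had 407, 413 and 397 normalised CPM in PAC-CM and 466, 490 and 447 with kinsenoside, a mean of 406 ± 8.12 against 468 ± 21.1 (SD, n = 3). The groups did not overlap. Its log2 fold change was 0.21 (interval 0.07 to 0.34), with an adjusted p of 0.178 by edgeR and 0.0741 by DESeq2. Lpcat3, which builds polyunsaturated phospholipids, had 64.1, 70.2 and 70.3 in PAC-CM and 71.1, 77.8 and 80.0 with kinsenoside, an estimate of 0.16 with an interval from -0.01 to 0.33. Its groups touched, and the order of the closest libraries depended on the scaling.

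Of the secreted proteins, Apoe had 2670, 2130 and 2420 normalised CPM in PAC-CM and 2290, 3110 and 2950 with kinsenoside. Kinsenoside replicates 2 and 3 were the highest and replicate 1 lay inside the PAC-CM range. The log2 fold change was 0.21 with an interval from -0.09 to 0.51 and an adjusted p of 0.503 (edgeR). Without kinsenoside replicate 1 the Apoe estimate was 0.33 (adjusted p 0.158, edgeR), without replicate 2 it was 0.12, and without PAC-CM replicate 2 it was 0.13. Apoc2, the cofactor of lipoprotein lipase, had 8.25, 12.4 and 9.74 in PAC-CM and 16.1, 11.2 and 13.4 with kinsenoside, an estimate of 0.42 with overlapping groups, or 0.28 without kinsenoside replicate 1 and 0.60 without PAC-CM replicate 2. The gene model Gm44805 contains 79.5% of the exon bases of Apoc2 and held 0 to 14 counts per library. Pltp had 357, 381 and 299 in PAC-CM and 432, 322 and 318 with kinsenoside, an estimate of 0.05, and shares 19.3% of its exon bases with Ctsa, which has 2.62 times its counts.

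The lipogenic genes did not separate the groups. Srebf1, the SREBP gene that LXR drives, had 38.7, 39.8 and 36.3 normalised CPM in PAC-CM and 38.4, 38.1 and 36.1 with kinsenoside, a log2 fold change of -0.03. Fasn (fatty acid synthase) and Acaca (acetyl-CoA carboxylase) had estimates of 0.15 and -0.09; Acaca shares 52.6% of the 50-base stretches of its longest transcript with the gene model Gm5182, which held 36 to 99 counts per library. The desaturase Scd2 had 106, 38.3 and 40.1 normalised CPM in PAC-CM and 80.6, 103 and 157 with kinsenoside. It was high in PAC-CM replicate 1 and in every kinsenoside library, and low in PAC-CM replicates 2 and 3. The log2 fold change of 0.88 had an interval from -0.52 to 2.29 and an adjusted p of 0.528 (edgeR). Leaving out PAC-CM replicate 1 gave 1.54 and leaving out kinsenoside replicate 3 gave 0.58, with adjusted p-values of 0.257 and 0.764 (edgeR). Scd1 had 3.19, 2.72 and 5.14 in PAC-CM and 2.52, 4.98 and 6.88 with kinsenoside, an estimate of 0.38 with an interval from -0.60 to 1.36. With 1 library left out the Scd1 estimate ranged from 0.03 (without kinsenoside replicate 3) to 0.70 (without PAC-CM replicate 3), and it was 0.69 without kinsenoside replicate 1.

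**Figure D4:**
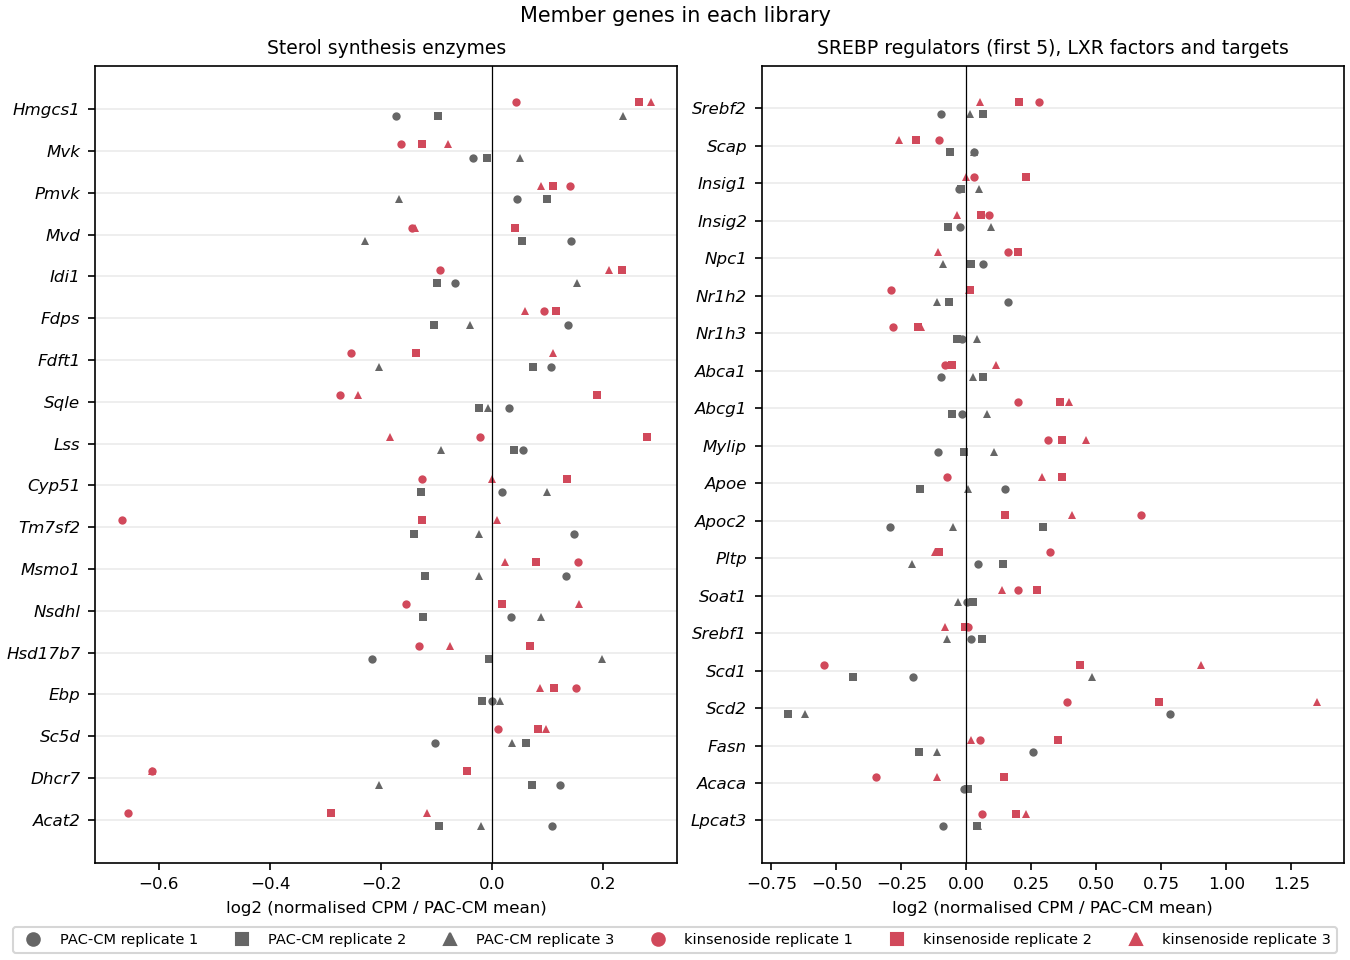
Value of each of the 38 genes in each of the 6 libraries, as log2 of normalised CPM over the mean of the PAC-CM libraries (x axis; the 2 panels have different ranges), with PAC-CM in grey and kinsenoside in red and a symbol for each replicate. Kinsenoside lies wholly to the right for Mylip, Abcg1, Soat1, Ebp and Lpcat3 and wholly to the left for Nr1h3, Acat2, Scap and Mvk, and the PAC-CM libraries of Scd2 spread from 38.3 to 106 normalised CPM.

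In the wider pathways edgeR called no gene either. Of 25 further SREBP pathway genes none was called by edgeR, and 11 estimates lay above 0 and 14 below. An unadjusted edgeR p under 0.05 came with a higher estimate for 1 gene, against 6.74% of all tested genes. It came with a lower estimate for 4, against 8.19%. Gpam, which starts glycerolipid synthesis, had 7.18, 5.43 and 6.19 normalised CPM in PAC-CM and 3.69, 4.28 and 3.90 with kinsenoside, a log2 fold change of -0.66 ± 0.145 (SE). It was lower in every kinsenoside library than in any PAC-CM library, with an adjusted p of 0.0982 by edgeR and 0.0132 by DESeq2. Acly, the citrate lyase that supplies acetyl-CoA and one of the most abundant of these genes per length, had an estimate of 0.00 (interval -0.16 to 0.16).

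Of 27 further genes that handle cholesterol 23 were tested and none was called by edgeR. Their median log2 fold change was -0.03. At an unadjusted edgeR p under 0.05 were 2 with a higher estimate and 2 with a lower one. The shares of all tested genes were 6.74% and 8.19%. Ch25h, which makes an oxysterol that activates LXR and restrains SREBP processing, had 63.0, 58.2 and 55.5 normalised CPM in PAC-CM and 46.7, 35.2 and 33.7 with kinsenoside. All kinsenoside libraries were below all PAC-CM libraries, at a log2 fold change of -0.61 ± 0.126 (SE) with an adjusted p of 0.0889 by edgeR and 0.00121 by DESeq2. Of the 15 alternative settings, 2 called Ch25h. Abca7, a transporter related to Abca1, had a log2 fold change of -0.21 with an adjusted p of 0.162 (edgeR), again with no overlap between the groups. Npc2, the partner of Npc1 in the lysosome, and Smpdl3a, an LXR-induced phosphodiesterase, were the most abundant per exon length, and their estimates were 0.11 (interval -0.03 to 0.25) and 0.19 (interval 0.01 to 0.37). With the longest transcript as length Smpdl3a (397 TPM in PAC-CM) came after Lipa, the lysosomal acid lipase (436 TPM).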

How the data were processed

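RNA-seq libraries of 6 macrophage samples, 3 without and 3 with kinsenoside, were compared. The authors deposited whole-number counts per Ensembl gene. Per the submitters' processing notes, the build was GRCm38 and the tools included STAR and StringTie 1.3.1c; the one that did the counting is not given in the sources. If an assembler did, reads of overlapping gene models can be shared out differently between libraries. Per the labels' protocols, 1 µg of RNA per library was enriched for mRNA and read as 150-nucleotide pairs; strand use is not stated.

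The counts were tested as deposited with edgeR 4.0.16 (R 4.3.3): filterByExpr, TMM scaling, a robust quasi-likelihood model of group (4 residual degrees of freedom), two-sided, Benjamini-Hochberg adjusted over 13901 genes, with a threshold of 0.05. The SE is the size of the log2 fold change over the square root of F, and 95% intervals use the t distribution with edgeR's total degrees of freedom. Normalised CPM are counts-per-million of the TMM-scaled library total. TPM were computed here from the counts with the exon length of each gene in GENCODE M21 (GRCm38), without TMM scaling. Exon overlaps and 50-base stretches shared with other genes come from the same annotation. Simulated counts with known changes were used to test the edgeR fit.

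The alternatives were DESeq2 1.42.0, limma-voom (limma 3.58.1), RLE, upper quartile and library total scaling, non-robust estimates, a block for replicate number, filtering at above 1 CPM in 3 or more libraries or not at all, each library left out, a threshold of 0.01 and the longest transcript as length. All 38 members are described; of the 2 lists of other pathway genes, the called genes, or with none called the 2 with the smallest p and the 2 most abundant per length, are named, apart from 2 that are not reported here, and Acat3 was added after its values were seen. The members, lists and rules were chosen with earlier results of these data known.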

Additional observations from a re-analysis of the deposited data

How the results depend on the processing

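Over all genes, edgeR called 71, DESeq2 494, the fit with the replicate block 42, non-robust estimates 36 and a threshold of 0.01 11; leaving out 1 library gave 13 (without PAC-CM replicate 1) to 98 (without kinsenoside replicate 1). By library totals 28.4% of 88 calls were higher, and without robust estimates 52.8% of 36, against 40.8% of 71; library totals also shifted the median log2 fold change of all genes to -0.05. Same-numbered libraries had correlations of their deviations of 0.00874, -0.101 and 0.135, inside the range of the other pairs (-0.173 to 0.164). These correlations cannot tell whether same-numbered libraries shared an animal, culture or preparation. With the replicate block no member was called. Members called numbered 2 by DESeq2 and 0 in the other 14 alternatives fitted over all genes; members at an unadjusted p under 0.05 numbered 5 to 8 with 1 library left out, 5 being without PAC-CM replicate 1, against 9.

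With 1 library left out, the median log2 fold change ranged from -0.06 to 0.06 for the enzymes and from 0.03 to 0.13 for the SREBP regulators. For the LXR branch it ranged from 0.12 to 0.21. Over 15 alternatives, 27 of 38 members kept their sign; the other 11 had estimates of at most 0.0927 in size. By library totals Lss became -0.00801, Cyp51 -0.0368, Nsdhl -0.0352 and Insig2 -0.00957; by upper quartile scaling Cyp51 became -0.0108 and Nsdhl -0.00899; and Abca1 became 0.00177 by DESeq2 and 0.0018 by RLE scaling. With 1 library left out, the estimates ranged from -0.174 to 0.00215 for Mvd, -0.103 to 0.134 for Lss, -0.0611 to 0.0696 for Cyp51, -0.0694 to 0.0863 for Nsdhl, -0.145 to 0.065 for Hsd17b7, -0.134 to 0.0118 for Nr1h2, -0.0701 to 0.0314 for Abca1, -0.114 to 0.124 for Pltp, -0.0607 to 0.0045 for Srebf1 and -0.227 to 0.0202 for Acaca. The cause of these changes was not tested.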
